A study of Mus musculus with 4 samples.

Results

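The genes described here encode the pathway by which a cell shows peptides on MHC class I molecules, followed from the light chain *B2m* through the heavy chains *H2-K1*, *H2-D1* and *H2-T23*, the peptide transporter *Tap1* and *Tap2*, tapasin (*Tapbp*), the immunoproteasome subunits *Psmb8* and *Psmb9*, and the regulator *Nlrc5*. They are 10 genes among 19645 deposited features, of which 17710 carry a gene symbol, and a row belonged to a gene when its symbol, or 1 of the comma-joined symbols of a merged feature, was the name of that gene. The list was chosen by the measured rise of *B2m* FPKM in the knockout in these same libraries. The *B2m* difference is therefore a description with no test, and the other differences come from the same contrast and are given as its values, not as independent evidence. The question asked of the list is whether the *B2m* rise was shared by the rest of the pathway.

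The libraries came from mouse embryonic stem cells (ESCs), cells derived from the early embryo that can form every adult tissue, and RNA was measured by sequencing after removal of ribosomal RNA. There were 2 libraries of wild type (WT) ESCs and 2 of *Bmal1* KO ESCs, made with CRISPR-Cas9 directed at the exon with the start codon of *Bmal1* (*Arntl* in the files), which encodes a transcription factor of the circadian clock. According to the methods the KO line is 1 selected clone, and both genotypes were grown on gelatin in serum with LIF. The labels give no strain and no separate clones or cultures, so the genotype cannot be told apart from the clone or culture, and every p-value measures only the spread between these libraries. Values are FPKM, fragment counts scaled to transcript length and library size, estimated by the authors.

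A class I molecule consists of a membrane heavy chain and the soluble light chain β2-microglobulin. Proteasomes cut proteins into peptides, the TAP transporter carries these into the endoplasmic reticulum, and tapasin with its partner chaperones loads them onto the heavy chain, after which the complex travels to the surface for inspection by CD8+ T cells and NK cells. ESCs are known for low class I expression, and in most cells interferons raise the pathway as a whole through IRF and STAT factors and the coactivator NLRC5.

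*B2m*, the gene that brought up the list, had 8.13 times the FPKM in KO as in WT. Of the other genes *H2-D1* rose 2.31-fold and passed the call, and none of the remaining 8 did, 4 of them being too low to be tested. Genes needed a mean of at least 0.5 FPKM over the 4 libraries to be compared, which 12990 features and 6 of the 10 genes met. Each of those 6 also had a WT mean above that level, so none entered through its KO values alone. A gene was called at a Benjamini-Hochberg adjusted p under 0.05, from limma over all tested features, together with a change over 2-fold. Among the 5 tested genes other than *B2m*, 1 was called higher, where 2.72% of all tested features were, and 0 were called lower, where 1.42% were. At an unadjusted p under 0.05 in limma, 2 of the 5 were higher, where 14.1% of tested features were, and 0 lower, where 15.5% were. Each KO value exceeded each WT value in 2 of these 5 genes, an order found in 27% of tested features, and in none of the 5 did each KO value fall short of each WT value, an order found in 31.7%. Since the list was brought up by this contrast, nothing is read from these counts.

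**Figure D1:**
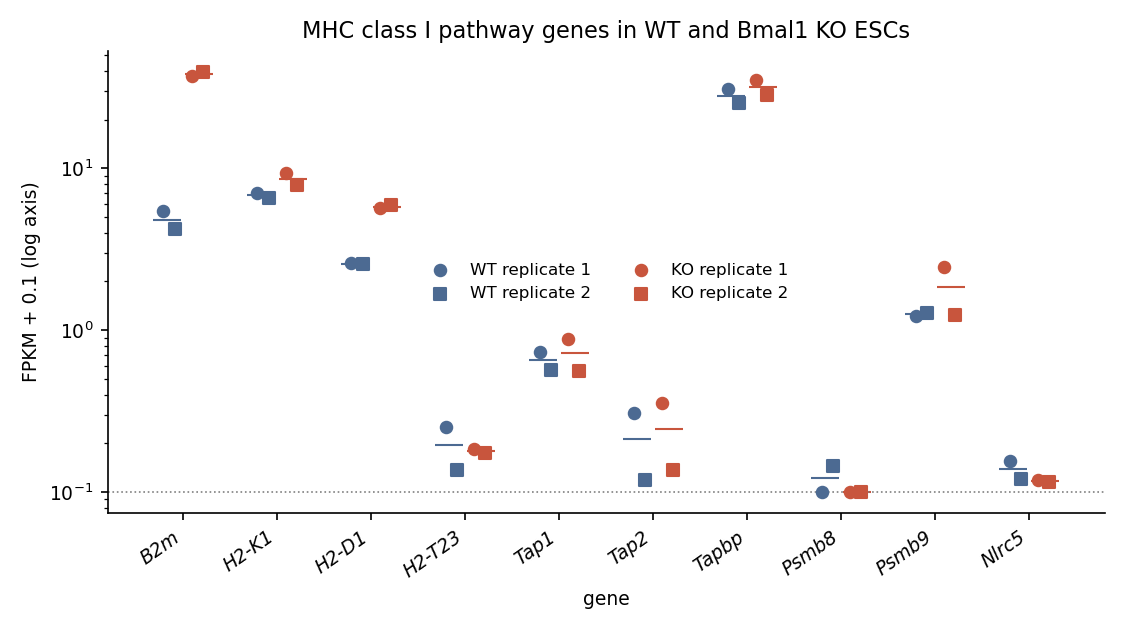
FPKM plus 0.1 on a log axis for the 10 class I pathway genes, with 1 point per library (blue WT, red KO, circle replicate 1, square replicate 2), a bar at each group mean and a dotted line where FPKM is 0. *B2m* moves from 4.09 to 5.32 FPKM in WT to 37.0 to 39.5 in KO, while *H2-T23*, *Tap2*, *Psmb8* and *Nlrc5* stay near the bottom in both genotypes.

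The order of levels changed around *B2m*. In WT ESCs the feature holding *Tapbp* was highest, followed by *H2-K1*, *B2m*, *H2-D1*, *Psmb9* and *Tap1*, and the libraries of neighbouring genes in this order did not overlap. In KO ESCs *B2m* lay above the *Tapbp* feature in both libraries, and the other genes kept their order, again with no overlap between neighbours. Among all deposited features, *B2m* FPKM was at or above 59.8% and 56.5% of the features of the WT libraries and 87.1% and 87.7% of those of the KO libraries.

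The promoters of the light chain and the heavy chains are shown because *B2m* chose the list, *H2-D1* passed the call and *H2-K1* did not, and that of *Patl2* because it is the gene around *B2m*. In textbook class I promoters an element for IRF factors lies upstream of an X2 box for CREB and ATF factors and a Y box for NF-Y, the platform on which NLRC5 acts. Sequences are from RefSeq (GRCm38.p6), 250 bases before the RefSeq start, 5′ to 3′ on the strand of the gene, and 8 of the 10 genes matched the RefSeq table. The windows are chr2:122147437-122147686 on the plus strand for *B2m*, chr17:34000348-34000597 on the minus strand for *H2-K1*, chr17:35262844-35263093 on the plus strand for *H2-D1* and chr2:122186190-122186439 on the minus strand for *Patl2*. The *H2-D1* window lies inside the deposited feature and inside the gene in the GENCODE annotation, which starts at chr17:35262730. Distances to the start of *H2-D1* therefore depend on the annotation used. Capitals mark AANNGAAA (an IRF core), TGACG (the core of the X2 box) and ATTGG (the Y box, an inverted CCAAT), searched on both strands.
B2m: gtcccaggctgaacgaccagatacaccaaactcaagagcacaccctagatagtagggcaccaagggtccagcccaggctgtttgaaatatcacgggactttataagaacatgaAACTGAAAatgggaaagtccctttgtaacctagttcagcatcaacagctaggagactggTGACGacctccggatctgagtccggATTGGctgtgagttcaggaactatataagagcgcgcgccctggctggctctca
H2-K1: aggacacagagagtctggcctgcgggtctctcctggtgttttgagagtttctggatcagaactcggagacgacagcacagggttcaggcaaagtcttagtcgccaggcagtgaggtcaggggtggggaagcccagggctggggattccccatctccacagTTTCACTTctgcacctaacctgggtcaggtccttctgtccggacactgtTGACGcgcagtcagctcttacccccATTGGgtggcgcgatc
H2-D1: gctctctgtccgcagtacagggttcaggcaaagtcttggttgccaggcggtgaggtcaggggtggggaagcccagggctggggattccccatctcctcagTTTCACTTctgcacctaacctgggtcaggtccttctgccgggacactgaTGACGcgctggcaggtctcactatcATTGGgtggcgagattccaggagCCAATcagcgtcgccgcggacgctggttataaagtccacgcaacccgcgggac
Patl2: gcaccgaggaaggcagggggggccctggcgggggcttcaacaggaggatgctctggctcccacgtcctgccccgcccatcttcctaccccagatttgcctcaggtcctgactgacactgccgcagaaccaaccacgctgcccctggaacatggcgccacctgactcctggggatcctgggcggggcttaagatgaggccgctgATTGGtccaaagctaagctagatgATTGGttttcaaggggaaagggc

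In the *B2m* window AANNGAAA, TGACG and ATTGG begin 137, 78 and 53 bases before the start. They begin 90, 41 and 16 bases before it in *H2-K1*, and 150, 101 and 76 bases before it in *H2-D1*, which has a further CCAAT at 53. These letters are common, present in 21.6%, 17.9% and 34.5% of the 27025 promoter windows of the same length. The distance from TGACG to ATTGG, however, was 25 bases in *B2m*, *H2-K1* and *H2-D1* alike, which was the case in 15 windows (0.0555%), and 5 windows (0.0185%) also held AANNGAAA, those of *B2m*, *H2-K1*, *H2-D1*, *H2-M3* and *Trim26*. This spacing was noticed after the matches had been seen, and near-identical windows of related genes are not independent. Of the remaining genes, *H2-T23* held AANNGAAA and CCAAT, *Tap1* and *Psmb9*, whose windows overlap because they are transcribed away from each other, held TGACG and ATTGG without AANNGAAA, *Tapbp* held ATTGG only, and *Psmb8* none of the 3. *Patl2* held ATTGG only. CACGTG, the E-box letters that CLOCK and BMAL1 bind, were found in 6.05% of all windows and in none of the 9 windows searched. A match is a string of letters and no binding was measured.

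*B2m* encodes β2-microglobulin, the light chain shared by all classical and most non-classical class I molecules. It had 5.32 and 4.09 FPKM in WT and 37.0 and 39.5 in KO. The KO values were far above the WT values, by much more than the gap between the replicates of either genotype. In bulk RNA, more cells with a gene on and more RNA per cell cannot be told apart. The means were 4.71 ± 0.866 (SD, n = 2) and 38.2 ± 1.72 (SD, n = 2), and on the log2(FPKM + 0.1) scale, which holds for all fold changes below and understates those of low genes, the difference was 3.01 (SE 0.14).

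The *B2m* feature has the coordinates chr2:122120108-122186189 of GRCm38 in the files, and 2 further features, *Patl2* and *Trim69*, have the same ones. In the GENCODE annotation *B2m* itself runs from chr2:122147686-122153083 on the plus strand, with 1 transcript of 860 exon bases, and *Patl2*, which encodes an RNA-binding protein of the oocyte, spans it on the minus strand. All 5398 bases of *B2m* lie in an intron of the 1 annotated *Patl2* transcript, and 0 exon bases are shared. *Patl2* had 1.28 and 0.875 FPKM in WT and 16.7 and 15.7 in KO. It rose in both KO libraries, with a log2 fold change of 3.81 (SE 0.19) and an adjusted p of 0.00126 in limma. *B2m* over *Patl2* was 4.17 and 4.68 in WT and 2.21 and 2.52 in KO. Whether the library preparation kept the strand is not given in the sources used here, so reads from *B2m* and from unspliced *Patl2* RNA cannot be told apart. *Trim69* was at most 0.0283 FPKM in any library.

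The genes beside this pair did not pass the test. The 3 tested features with a symbol before *B2m* and the 3 after it were not called. Before it, *Ctdspl2* had a log2 fold change of 0.08 (adjusted p = 0.655 in limma), *Eif3j1* of -0.30 (adjusted p = 0.311) and *Spg11* of 0.24 (adjusted p = 0.236). After it, *Sord* had -0.12 (adjusted p = 0.449), *Shf* -0.21 (adjusted p = 0.328) and *Spata5l1* -0.06 (adjusted p = 0.703).

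**Figure D2:**
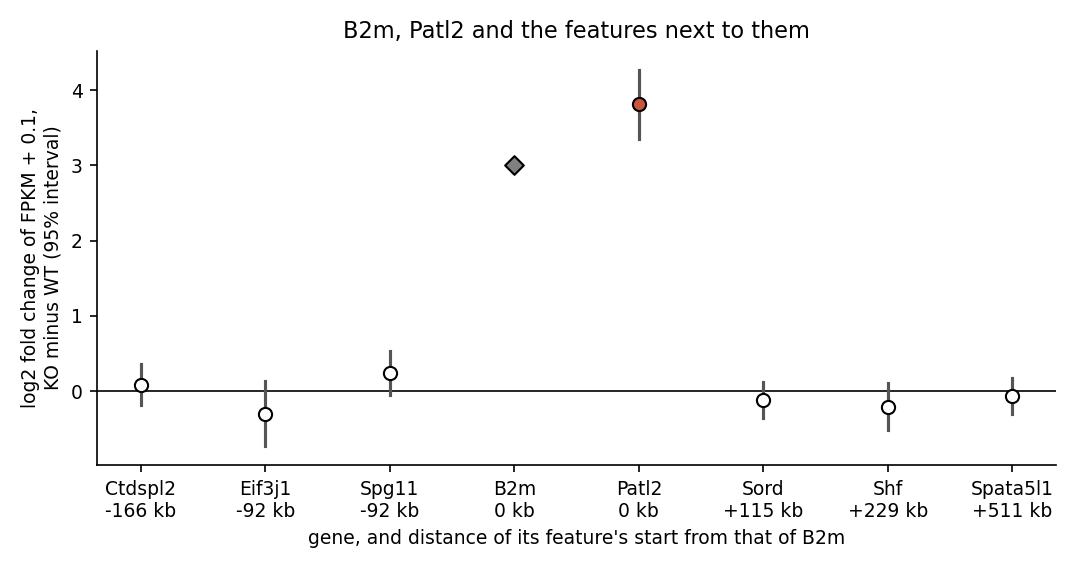
Log2 fold change of FPKM plus 0.1, KO minus WT, for the features at and beside *B2m* above the expression limit, in chromosome order with the distance between feature starts in kb and, except for *B2m*, the 95% interval from limma. The grey diamond is *B2m* (3.01), which chose the list and has no test, the filled circle is *Patl2* (3.81), which passed the call, and the 6 open circles lie between -0.30 and 0.24.

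*H2-K1* and *H2-D1* encode the classical heavy chains that present peptides to CD8+ T cells. *H2-K1* (chr17:33996012-34000333) had 6.97 and 6.51 FPKM in WT and 9.25 and 7.75 in KO. The KO values were the higher ones, but KO replicate 2 lay nearer to WT replicate 1 than to KO replicate 1. Its log2 fold change was 0.33 (SE 0.12, 95% interval 0.02 to 0.63), with an adjusted p of 0.147 in limma. The *H2-D1* feature (chr17:35262774-35267497) is merged in the files with *H2-L*, a further classical heavy chain of some strains. It had 2.49 and 2.46 FPKM in WT and 5.58 and 5.84 in KO. The genotypes were well separated and the replicates nearly equal. The log2 fold change was 1.17 (SE 0.12, 95% interval 0.88 to 1.47), with an adjusted p of 0.00558 in limma. With a pseudocount of 1 in place of 0.1 it was 0.95 (adjusted p = 0.00561), under the 2-fold limit. The longest coding transcripts of *H2-K1* and *H2-D1* were 90.3% identical over 1475 aligned bases, so reads can be shared between them and the split of reads between the classical heavy chains is uncertain.

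Since light and heavy chains pair 1 to 1 in the protein complex, their RNA levels were set side by side. *H2-K1* and *H2-D1* together had 9.45 and 8.97 FPKM in WT and 14.8 and 13.6 in KO. Over *B2m* this sum was 1.78 and 2.19 in WT and 0.400 and 0.344 in KO. The sum of these 2 genes was thus above *B2m* in each WT library and below it in each KO library. As the ratio holds the *B2m* values that chose the list, this crossing restates their rise and is no further result. Other heavy chains are not in the sum. Within the pair, *H2-D1* over *H2-K1* moved from 0.357 and 0.378 in WT to 0.604 and 0.754 in KO. *H2-T23*, the non-classical heavy chain known as Qa-1, which is recognised by NKG2A on NK cells, was low throughout with 0.152 and 0.0375 FPKM in WT and 0.0841 and 0.0739 in KO. It was not tested, its values overlapped, and its feature (chr17:35991899-36042702) has the coordinates of other *H2-T* features.

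**Figure D3:**
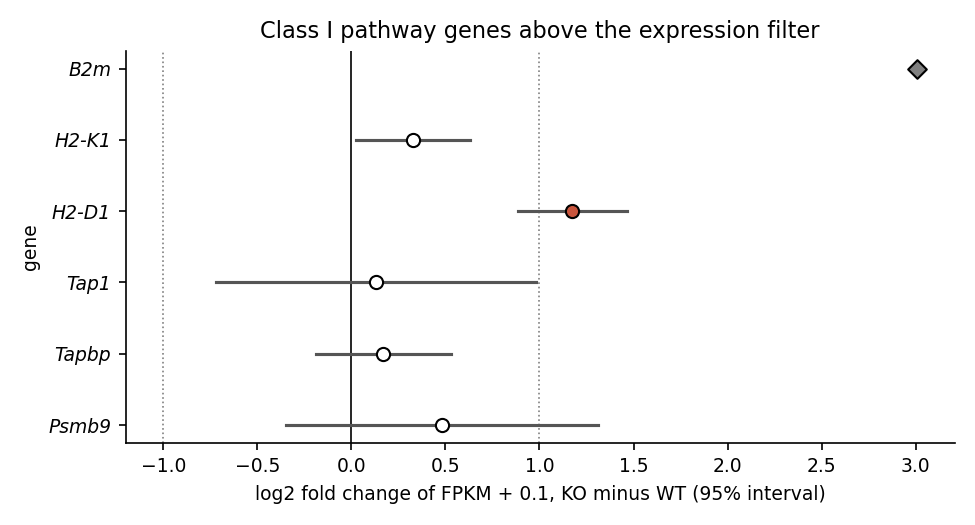
Log2 fold change of FPKM plus 0.1, KO minus WT, for the 6 class I pathway genes with a mean of at least 0.5 FPKM, with the 95% interval from limma for all but *B2m*, the grey diamond at 3.01, which chose the list and has no test. The filled circle, *H2-D1* at 1.17, passed the adjusted p and the 2-fold limit (dotted lines), and the open circles lie between 0.13 and 0.48.

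*Tap1* and *Tap2* encode the 2 chains of the peptide transporter. *Tap1* (chr17:34187556-34197225) had 0.636 and 0.465 FPKM in WT and 0.785 and 0.463 in KO. In both genotypes replicate 1 was the higher one and the groups overlapped. The log2 fold change was 0.13 (SE 0.35, 95% interval -0.72 to 0.98, adjusted p = 0.833 in limma), an interval whose upper end is close to 2-fold. *Tap2* (chr17:34204479-34216321) was not tested, with 0.208 and 0.0184 FPKM in WT and 0.255 and 0.0366 in KO, and its groups overlapped.

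Tapasin holds the empty heavy chain next to the transporter. Its feature (chr17:33915883-33937688) merges *Tapbp* with the flanking genes *Rgl2* and *Zbtb22*, so its level is not that of *Tapbp* alone. It had 31.0 and 25.1 FPKM in WT and 34.9 and 28.3 in KO. The groups overlapped, and the log2 fold change was 0.17 (SE 0.15, 95% interval -0.19 to 0.53, adjusted p = 0.484 in limma).

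*Psmb8* and *Psmb9* encode catalytic subunits that replace constitutive ones in the immunoproteasome. *Psmb9* (chr17:34182099-34187330) had 1.12 and 1.18 FPKM in WT and 2.35 and 1.15 in KO. Only KO replicate 1 was high, and KO replicate 2 lay between the WT libraries. The log2 fold change was 0.48 (SE 0.34, 95% interval -0.35 to 1.31, adjusted p = 0.393 in limma), and without KO replicate 1 it was -0.0080 (adjusted p = 0.992), while without KO replicate 2 it was 0.97 (adjusted p = 0.0464). *Psmb8* (chr17:34198195-34201454) was listed at 0 in WT replicate 1 and in both KO libraries and at 0.0455 FPKM in WT replicate 2. *Nlrc5* (chr8:94472763-94527272), the coactivator of class I promoters, had 0.0552 and 0.0210 FPKM in WT and 0.0179 and 0.0159 in KO. The KO values were the lower ones, at levels under the limit for a test.

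Further genes were described with 8 lists that hold 95 genes and 80 features, 61 of them tested. The lists cover class I presentation and its control, and also the constitutive proteasome, the MHC class II pathway and NKG2D ligands. In limma 0 of the 61 were called higher and 1 lower, against 2.72% and 1.42% of all tested features. At an unadjusted p under 0.05, 8 were higher and 9 lower, against 14.1% and 15.5%. At an adjusted p under 0.05 and any size of change, 4 were higher, where 6.85% of tested features were, and 3 were lower, where 5.6% were. The median log2 fold change of the 61 was -0.02, and that of all tested features was also -0.02. This pools lists that differ. Their medians ran from -0.18 in the MHC class II pathway (2 tested features) to 0.39 in NKG2D ligands (3 tested features). Each KO value exceeded each WT value in 17 of the 61, and the reverse held in 19, against 27% and 31.7% of all tested features.

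**Figure D4:**
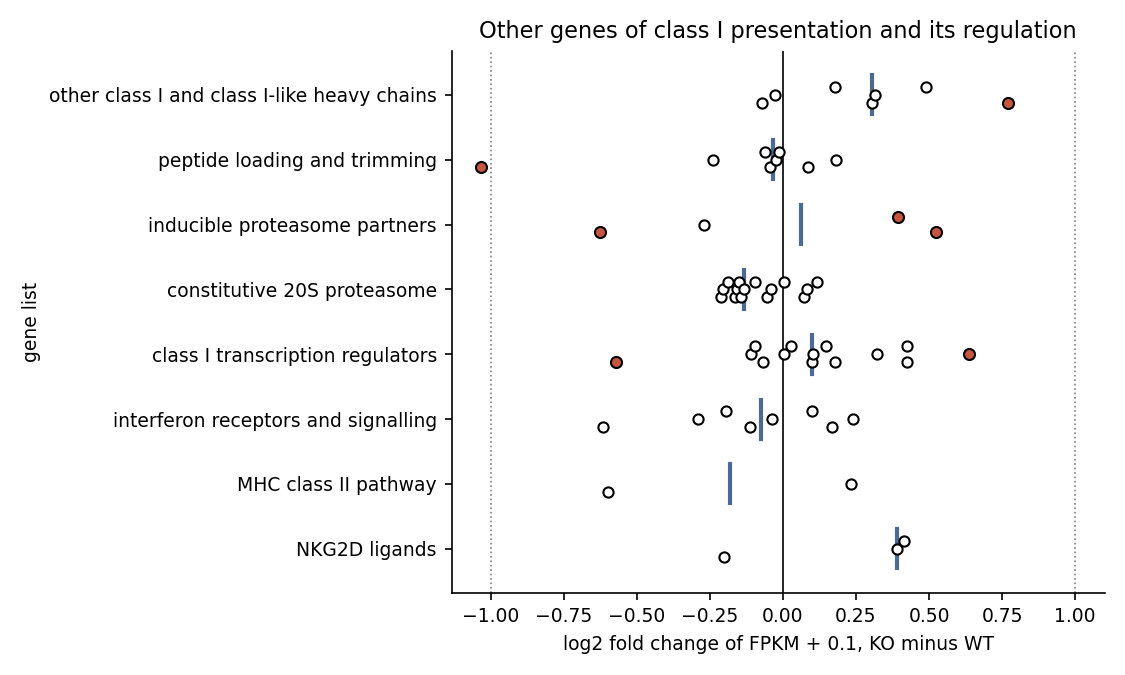
Log2 fold change of FPKM plus 0.1, KO minus WT, for the 61 tested features of 8 lists of related genes, with 1 point per feature and a blue bar at the median of each list. Filled points had an adjusted p under 0.05 in limma, and only *Tapbpl* at -1.03 lies beyond the dotted 2-fold lines.

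Among other class I and class I-like heavy chains 7 of 17 features were tested, 0 were called, and 1, *H2-Q4*, had an adjusted p under 0.05. *H2-Q4*, a heavy chain gene of the Q region, had 2.19 and 1.85 FPKM in WT and 3.60 and 3.40 in KO. It was higher in both KO libraries, by 0.77 on the log2 scale (SE 0.15, adjusted p = 0.0298 in limma). Its transcript was 91.8% identical to that of *H2-K1* and 91.7% to that of *H2-D1*, each over 939 aligned bases. *Fcgrt*, the heavy chain of the neonatal Fc receptor and also a partner of β2-microglobulin, had 4.96 and 4.51 FPKM in WT and 6.18 and 5.59 in KO (log2 fold change 0.31, adjusted p = 0.156). The feature that merges *H2-M5* with 2410137M14Rik had a log2 fold change of 0.18 (adjusted p = 0.294), and *Cd1d1*, which presents lipids, of -0.03 (adjusted p = 0.917). The median of the list was 0.31. *H2-M3*, which presents formylated peptides, is named after its values were seen. It was under the expression limit, with 0.200 and 0.133 FPKM in WT and 0.653 and 0.395 in KO, and both KO libraries were the higher ones.

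In peptide loading and trimming 8 of 9 features were tested, 0 were called higher and 1 lower. *Tapbpl*, a relative of tapasin that edits the peptides bound to class I, fell from 2.27 and 2.40 FPKM in WT to 1.15 and 1.03 in KO. The genotypes were well separated, with a log2 fold change of -1.03 (SE 0.17, adjusted p = 0.0189 in limma). This call, close to the 2-fold limit, was lost (0 called lower) without WT replicate 2 and without KO replicate 2. The chaperones of the loading complex were expressed at high levels in both genotypes and were not called. *Calr* had a mean of 476 FPKM over the libraries and a log2 fold change of -0.02 (adjusted p = 0.873), *Pdia3* one of -0.04 (adjusted p = 0.803) and *Canx* one of -0.01 (adjusted p = 0.934). *Bcap31*, which takes part in export from the endoplasmic reticulum, had -0.24 (adjusted p = 0.142).

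The inducible partners of the proteasome moved in both directions, none past 2-fold. The subunits of the PA28 activator were higher, *Psme1* with 36.7 and 34.8 FPKM in WT against 48.8 and 45.1 in KO (log2 fold change 0.39, adjusted p = 0.0337 in limma), and *Psme2* with 31.3 and 25.1 against 42.1 and 38.7 (0.52, adjusted p = 0.0484). The feature of *Psmb10*, the remaining immunoproteasome subunit, merged with *Ctrl*, fell from 44.0 and 40.9 to 30.8 and 24.4 FPKM (-0.63, adjusted p = 0.0305). *Pomp*, the proteasome maturation factor, had -0.27 (adjusted p = 0.0728). *Psmb8*, *Psmb9* and *Psmb10* replace only some subunits of the constitutive 20S proteasome. Of its features 15 of 15 were tested, 0 were called, and 0 had an adjusted p under 0.05 in limma. Their log2 fold changes ran from -0.21 to 0.12, with a median of -0.13. The constitutive subunits of highest level, *Psmb4*, *Psmb3*, *Psmb7* and *Psmb6*, lay between 338 and 474 FPKM on average.

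Of the transcription regulators of class I genes, 14 of 15 features were tested, 0 were called in either direction, and 1 was higher and 1 lower at an adjusted p under 0.05. *Nfkb1*, the p50 subunit of NF-κB, fell from 23.7 and 22.5 FPKM in WT to 16.1 and 14.9 in KO (log2 fold change -0.57, SE 0.09, adjusted p = 0.0156 in limma). *Irf1*, an interferon-induced activator of class I promoters and a gene named after its values were seen, rose from 3.63 and 3.40 to 6.0 and 5.07 FPKM (0.64, SE 0.13, adjusted p = 0.0352). *Atf1*, which binds X2 boxes, had -0.09 (adjusted p = 0.646), and the NF-Y subunits *Nfyc* and *Nfyb*, which bind Y boxes, had 0.0045 (adjusted p = 0.975) and -0.11 (adjusted p = 0.545). The median of the list was 0.10.

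Interferon receptors, their kinases and the signalling inhibitor *Socs1* were expressed at 0.853 to 10.5 FPKM on average. All 8 features were tested and 0 were called or had an adjusted p under 0.05 in limma, with a median log2 fold change of -0.08. *Tyk2* had -0.11 (adjusted p = 0.646), *Jak1* -0.20 (adjusted p = 0.236), *Ifnar2* 0.10 (adjusted p = 0.564) and *Ifnar1* -0.04 (adjusted p = 0.858). The largest change was that of *Socs1*, named after its values were seen. It had 2.75 and 2.56 FPKM in WT and 1.49 and 1.93 in KO (-0.62, adjusted p = 0.0835 in limma). The MHC class II pathway was low, with 2 of 8 features tested and 0 called. Its invariant chain *Cd74* had 1.43 and 1.93 FPKM in WT and 1.14 and 0.996 in KO (-0.60, adjusted p = 0.140), and *H2-DMb1* had 0.23 (adjusted p = 0.723). Of the ligands of NKG2D, an activating receptor that responds to stressed cells, 3 of 4 features were tested and 0 called. The merged *Raet1* feature had 6.16 and 6.36 FPKM in WT and 8.72 and 8.06 in KO (0.42, adjusted p = 0.0531), *H60b* had 0.39 (adjusted p = 0.264) and *Ulbp1* -0.20 (adjusted p = 0.447).

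The class I genes of chromosome 17 lie in the MHC region. Among 88 tested features with a symbol in chr17:33915883-37274485, 2 were called higher and 3 lower, against 2.72% and 1.42% of all tested features, and the median log2 fold change was -0.07, against -0.02. The called features besides *H2-D1* were *Neu1* (1.01), a lysosomal sialidase, and *Ly6g6e* (-1.24), *Rnf39* (-1.95) and *Sapcd1* (-1.97), all named after their values were seen.

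The features most like *B2m* were those with the smallest Euclidean distance between the log2 values of the 4 libraries, each centred on its WT mean, among 10985 features with a mean of at least 1 FPKM. They were *Stard8* (distance 0.337), *Vax2* (0.557), *Dmbx1* (0.591), *Aim2* (0.621) and *Sh3bgrl* (0.625). None of these is a gene of class I presentation, but this was fixed by the values already given. The distance includes the size of the rise, which was 3.01 on the log2 scale for *B2m*. The highest log2 fold change was 1.17 (*H2-D1*) among the other tested class I genes and 0.77 (*H2-Q4*) among the related lists. The absence of class I genes therefore does not answer whether the rise was shared. Being chosen for this pattern, the named features are given no test.

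Facts of the whole series that bear on these values are few. *Arntl* had 6.05 and 6.29 FPKM in WT and 5.95 and 5.92 in KO (log2 fold change -0.06, adjusted p = 0.750 in limma), and since an edit at a start codon need not change the RNA level, this does not check the labels. Median FPKM was between 2.32 and 2.46 in the libraries, and features without a symbol held 26.8% and 37.3% of the FPKM in WT and 19.0% and 18.1% in KO. Whether this difference takes part in the results above was not tested. All 8 pluripotency markers were detected, with sums between 5887 and 6432 FPKM, of which *Dppa5a* (mean 2963) and *Pou5f1* (mean 1514) made up most. Of their 9 features 0 were called, where 2.72% of all tested features were called higher and 1.42% lower. *Klf4* (log2 fold change -0.46, adjusted p = 0.0177 in limma) and *Tdgf1* (-0.36, adjusted p = 0.0322) were lower in KO. At an adjusted p under 0.05 and any size, 5.6% of tested features were lower. In 5 of the 9 each KO value was below each WT value, an order found in 31.7% of tested features. The reverse held in 1 of the 9, against 27%. Nothing is read from counts over so few features. The markers of other cells were low. The 6 of 8 fibroblast markers with a feature of their own summed to 1.72 to 1.97 FPKM in WT and 2.35 to 3.0 in KO, with 5 of them under 0.5. The 6 of 8 immune markers summed to 1.47 to 1.69 and 1.39 to 2.05. Most of this was *Cd3e*, with 0.944 and 1.28 FPKM in WT and 1.35 and 1.51 in KO. Its log2 fold change was 0.35 (adjusted p = 0.350 in limma). The other 5 were under 0.5, with *Ptprc* and *Lyz2* at or near 0. The 6 endoderm markers summed to 1.04 to 1.10 and 1.40 to 1.56. The 5 of 6 trophoblast markers summed to 4.99 to 6.04 in WT and 8.85 to 9.79 in KO, nearly all of it *Tfap2c* (log2 fold change 0.78, adjusted p = 0.0187 in limma), and the part of these markers in the class I values was not tested.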

How the data were processed

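RNA of 2 WT and 2 *Bmal1* KO libraries was extracted with TRIzol and depleted of ribosomal RNA with Ribo-Zero. The deposited values are FPKM per feature, estimated by the authors. The submitters' processing notes name TopHat2 2.1.1, Bowtie2 2.3.0 and Cufflinks 2.2.1 and the builds GRCm38 and mm10. FPKM do not give the number of reads, so the sequencing depth is unknown and precision was judged by replicate spread. Features with merged symbols were kept as deposited, and 1 was added to the start coordinates.

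Groups follow the labels. FPKM were transformed as log2(FPKM + 0.1), features averaging at least 0.5 FPKM (12990) were tested, and the KO minus WT difference was fitted in limma 3.58.1 (R 4.3.3) with a variance trend and Benjamini-Hochberg adjustment over all tested features. Calls needed an adjusted p under 0.05 and more than 2-fold. An exact permutation test over 2 against 2 libraries cannot go below p = 0.333 and was not used. The procedure was checked on simulated data. Gene positions came from the GENCODE M21 annotation and promoter sequences from RefSeq, matched by symbol, transcripts were aligned with Biopython 1.88, and tables and plots were made in Python 3.11.15 with pandas 2.3.3, numpy 2.4.6 and matplotlib 3.10.9.

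The 10 genes and the lists were chosen with earlier results of these data known. Named are the 10 genes, the 3 tested features on either side of *B2m* and those at its coordinates, of each list every called gene and up to 4 others of highest mean, the 5 features most like *B2m*, *Arntl*, and genes said to be named after their values were seen. Alternatives were a pseudocount of 1 or 0.01, no filter, a mean of at least 1 FPKM, the replicate block, median-of-ratios scaling, quantile normalization, no variance trend, FPKM summed by symbol, and leaving out each library.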

Additional observations from a re-analysis of the deposited data

How the results depend on the processing

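The log2 fold change of *B2m* stayed between 2.79 and 3.19 over the 13 alternatives, and that of *H2-D1* between 0.95 and 1.21, with adjusted p from 6.43e-06 to 0.0216 in limma. With a pseudocount of 1, 146 features were called higher and 85 lower in place of 353 and 185, and of the genes other than *B2m* 0 were called higher in place of 1, because *H2-D1* fell under 2-fold. *Tapbpl*, the 1 call among the related genes, was lost (0 called lower) with a pseudocount of 1, with no filter, without WT replicate 2 and without KO replicate 2. Leaving out 1 library at a time gave 305 to 497 features called higher and 257 to 323 lower, with 0 to 1 related genes lower, the single library of the genotype being assumed to vary like the other genotype. Over the same fits the log2 fold change of *Tap1* ran from -0.20 to 0.46, below 0 without WT replicate 2 (-0.06) and without KO replicate 1 (-0.20), and that of *Psmb9* from -0.0080 without KO replicate 1 to 0.97. The medians of all features stayed between -0.03 and -0.01 under each scaling.

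The replicate block gave 392 features higher and 240 lower. *H2-D1* stayed called, and *H2-K1* and *Tapbp* passed the adjusted threshold with the size of their change as before, at 0.0357 and 0.0327 in limma. Nothing in the labels says that equal numbers share a batch, and the differences between replicates 2 and 1 of WT and KO had a Pearson correlation of 0.0712 and a Spearman correlation of 0.387 across 12990 features, which share libraries and are not independent.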
